A study of Homo sapiens with 4 samples.

Results

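ATF4 and 9 genes that act with it or under it in the integrated stress response were followed in BE(2)C cells after knockdown of MYCN. The genes were taken by symbol: ATF4, the bZIP factors ATF3, ATF5, DDIT3 and CEBPB, and the target genes ASNS, TRIB3, CHAC1, SESN2 and DDIT4. All 10 were found among the 26364 genes listed in each sample, and all 10 passed the filter on low values. BE(2)C (BE2C in the sample labels) is a human neuroblastoma line that carries an amplified MYCN gene. RNA was sequenced from 2 control samples (Ctrl), whose genotype is labelled wild type and which received a non-targeting siRNA, and from 2 MYCN knockdown samples (MYCN KD), which received siRNA against MYCN. Per the labels, both groups were incubated with 80 nM siRNA and Lipofectamine for 6 h and RNA was taken the next day, while the study's methods give a lower siRNA concentration. The knockdown was made with a single siRNA product, so effects of MYCN loss and effects of that siRNA on other transcripts cannot be told apart. The study's methods call the RNA-seq replicates biological. Neither the methods nor the labels say that the replicates came from separate cultures, so p-values measure only the spread between these samples.

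In the integrated stress response, kinases that sense misfolded protein, amino acid shortage, double-stranded RNA or heme deficiency phosphorylate the translation factor eIF2. General translation then slows, while the ATF4 transcript is translated more because of the upstream open reading frames in its leader. ATF4 dimerizes with other bZIP proteins and binds sites composed of a C/EBP and an ATF part (C/EBP-ATF response elements, CARE). Its targets supply amino acids and charge tRNAs, and under lasting stress DDIT3, which encodes CHOP, adds targets linked to cell death. RNA-seq measures the ATF4 transcript and not its translation, so ATF4 protein was not measured in these data.

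The values are RPKM, read counts scaled to gene length and to the total of the sample, computed by the authors after normalization. The totals recovered from the RPKM steps ranged from 29055819 to 34142988 reads per sample. MYCN, the targeted gene, stood at 1068 and 1073 RPKM in Ctrl and fell to 720 and 718 RPKM on knockdown, by 0.57 on the log2 scale (SE 0.029, limma adjusted p = 0.00361). Of 8 noradrenergic neuroblastoma markers none was at 0, and their summed RPKM was 1251 to 1353 in Ctrl and 1988 to 2163 in MYCN KD. The summed RPKM of 4 leukocyte markers was 4.97 to 6.00 in Ctrl and 11.0 to 13.2 in MYCN KD. Of these CD68 had means of 3.86 and 10.4 RPKM and CD14 of 1.62 and 1.64 RPKM, while PTPRC and CD3E had 0 or 1 read in each sample. The summed RPKM of 5 fibroblast markers was 22.6 to 24.6 in Ctrl and 27.997 to 30.517 in MYCN KD. The sums of 3 endothelial and of 3 epithelial markers stayed at or below 0.638 RPKM, with KRT5 at 0 in every sample. The part of these marker differences in the results was not tested. The deviations of same-numbered samples from their group means were mirror images (correlation -0.9845 across 11411 genes, which are not independent replicates), and in all 10 genes the gap between replicates had opposite signs in Ctrl and MYCN KD. The replicate error of each gene therefore rests on fewer independent differences than 4 separate samples would give.

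MYCN KD changed these genes in both directions. ATF3 about doubled and TRIB3 rose slightly, whereas CEBPB, ASNS and ATF4 fell. DDIT3, ATF5, DDIT4, SESN2 and CHAC1 did not pass the test. Thus 2 of 10 genes were higher and 3 were lower at an adjusted p under 0.05, beside 25.3% higher and 22.8% lower among all 11411 genes tested (48.1% in either direction), so their share is close to that of genes at large. The median log2 fold change of the 10 genes was -0.08, and that of all tested genes was 0.03. Log2 fold changes are of RPKM + 1, which makes folds of weakly expressed genes look smaller than they are, and SE is their standard error. Adjusted p-values come from the limma fit over all tested genes, corrected by the method of Benjamini and Hochberg. An exact permutation test of a single gene cannot go below p = 0.3333 with 2 samples a group and was not used.

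**Figure D1:**
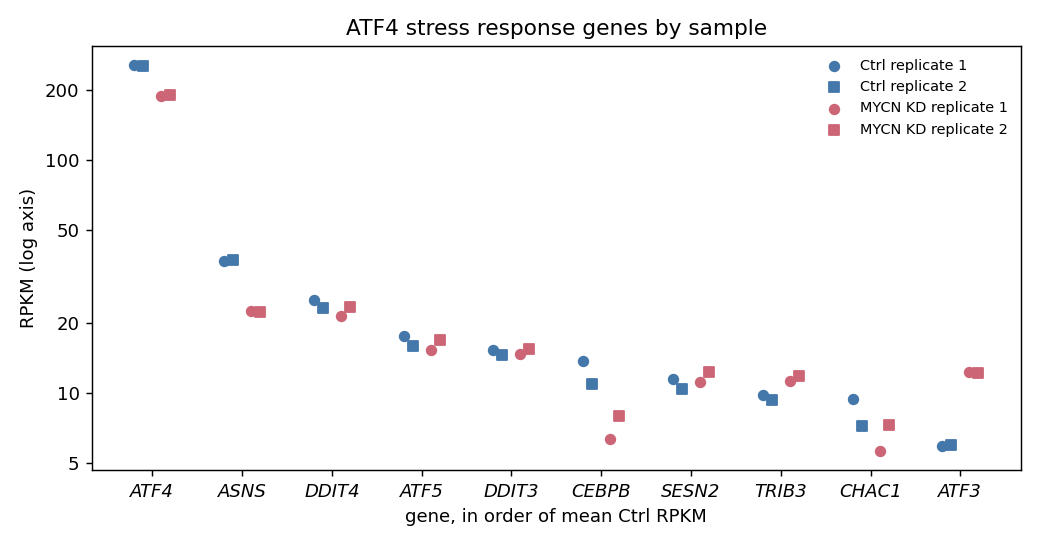
RPKM (log axis) of the 10 genes in order of their mean in Ctrl, with 1 point for each of the 4 samples. ATF4 lies far above the other genes, the MYCN KD points of ATF3 lie near 12 RPKM above Ctrl points near 6, and the points of ASNS and CEBPB are lower in MYCN KD than in Ctrl.

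The promoters of these genes were searched for the motifs of ATF4 dimers, MYC family proteins and CREB-like dimers. Each promoter is the window of 300 bases that RefSeq (table of build GRCh38.p14) gives around a start, 250 before it and 50 from it. The 10 genes had 19 such windows, each found at exactly 1 place of GRCh37, and both strands of the whole windows were searched, as for all promoters. CARE was written as TGATGNAA, the E-box bound by MYC family proteins as CACGTG, and the CRE bound by ATF and CREB dimers as TGACGTCA. CARE was found in 1 promoter each of ASNS, ATF3 and CHAC1, and in 3.62% of all 35116 RefSeq promoters. The E-box was found only in both promoters of ATF4, where it is the same site, and in 7.26% of all promoters. The CRE was in 0 of the 19 promoters and in 1.85% of all promoters. The 4 sites are printed with 30 bases each because ATF4, ASNS and ATF3 are among the genes that changed and CHAC1 is the other gene with a CARE, and capitals mark the motif.
ATF4: ggaggagacggtCACGTGgtcgcggcggaa
ASNS: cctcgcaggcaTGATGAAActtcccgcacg
ATF3: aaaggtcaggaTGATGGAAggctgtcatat
CHAC1: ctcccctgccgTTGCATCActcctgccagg

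The ATF4 sequence lies at chr22:39916470-39916499 on the plus strand, with its E-box starting 82 or 85 bases before the 2 RefSeq starts. The printed bases overlap an exon of 1 GENCODE transcript of the gene. The ASNS sequence lies at chr7:97501770-97501799 and is read on the minus strand. Its CARE starts 68 bases before 1 of the 2 RefSeq starts, and the printed bases overlap exons of 3 GENCODE transcripts. The ATF3 sequence lies at chr1:212738547-212738576 on the plus strand, outside the GENCODE gene, with its CARE starting 191 bases before 1 of the 2 RefSeq starts. The CHAC1 sequence lies at chr15:41245449-41245478 on the plus strand and holds the motif as its reverse complement, starting 209 bases before the RefSeq start. Its printed bases overlap an exon of 1 GENCODE transcript. A match describes the letters of the window, and binding at these sites was not measured here.

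ATF4 (chromosome 22, 39915700 to 39918688, plus strand), the factor that the response is named for, had 255 and 254 RPKM in the Ctrl samples against 189 and 190.0 RPKM after MYCN KD. Both MYCN KD samples were lower than both Ctrl samples, and the gap between groups was far larger than the spread within them. The means were 254 ± 0.720 RPKM (SD, n = 2) in Ctrl and 189 ± 0.706 RPKM (SD, n = 2) in MYCN KD, a ratio of 0.745. Its log2 fold change was -0.42 (SE 0.029, limma adjusted p = 0.00460). ATF4 was the most abundant of the 10 genes, at the percentile 97.8 of the Ctrl means of all tested genes, and rested on 11129 to 17639 reads per sample. GENCODE annotates 4 pseudogenes of ATF4, and how reads shared with them were counted is not given in the sources used here.

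The bZIP partners of ATF4 went in different directions. ATF3 (chromosome 1, 212738676 to 212794119, plus strand), an early stress-induced factor, had 5.94 and 6.00 RPKM in the Ctrl samples against 12.3 and 12.2 RPKM after MYCN KD. Both MYCN KD values lay above both Ctrl values and the replicates of each group nearly coincided. ATF3 rose 2.05-fold, with a log2 fold change of 0.93 (SE 0.038, 95% interval 0.81 to 1.04, limma adjusted p = 0.00359). Only 2.38% of all tested genes had a larger rise. It rested on 488 to 958 reads per sample, and the counting intervals of the groups, at most 6.55 RPKM in Ctrl and at least 11.4 RPKM in MYCN KD, stood apart. These intervals are exact Poisson intervals at 95% and cover counting error only. For the 2 Ctrl samples they ran from 5.44 to 6.47 RPKM and from 5.48 to 6.55 RPKM, far wider than the gap between them. The SE of ATF3 may thus be too small.

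CEBPB (chromosome 20, 48807367 to 48809205, plus strand) encodes C/EBPβ, a factor with activating and shortened inhibitory forms made from a gene with 1 exon. It had 13.8 and 10.9 RPKM in the Ctrl samples against 6.35 and 7.99 RPKM after MYCN KD. Both MYCN KD samples were lower, but the replicates of each group differed beyond their counting intervals: 12.9 to 14.7 RPKM for Ctrl replicate 1 beside 10.1 to 11.7 RPKM for Ctrl replicate 2, and 5.74 to 7.01 RPKM beside 7.32 to 8.70 RPKM in MYCN KD. CEBPB fell to 0.580 of its Ctrl mean, with a log2 fold change of -0.71 (SE 0.17, 95% interval -1.20 to -0.22, limma adjusted p = 0.0392). The change was close to that of ASNS, with a larger standard error. Without the filter on low values the adjusted p was 0.0633, above the threshold. CEBPB-AS1 overlaps 669 bases of the gene on the opposite strand, and whether reads were counted by strand is not given in the sources used here.

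DDIT3 (chromosome 12, 57910371 to 57915520, minus strand), which encodes CHOP, had 15.3 and 14.6 RPKM in the Ctrl samples against 14.8 and 15.5 RPKM after MYCN KD. The groups overlapped. Its log2 fold change was 0.02 with a 95% interval of -0.12 to 0.16 (limma adjusted p = 0.771), an interval that leaves out a change of the size seen for ATF3. DDIT3 overlaps MARS1 by 982 bases and MBD6 by 1028 bases on the opposite strand, so its reads are uncertain if strand was not used. A GENCODE gene without a symbol also overlaps 2769 bases of it on the same strand.

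ATF5 (chromosome 19, 50431959 to 50437192, plus strand), a factor linked to survival and to the mitochondrial stress response, had 17.5 and 15.9 RPKM in the Ctrl samples against 15.3 and 16.9 RPKM after MYCN KD. The groups overlapped here too. Its log2 fold change was -0.05 (95% interval -0.29 to 0.18, limma adjusted p = 0.613). On the opposite strand, NUP62 overlaps 1063 bases of ATF5, IL4I1 overlaps 838 bases, and a further GENCODE protein-coding gene without a symbol spans all 5234 bases.

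Among the targets, ASNS fell and TRIB3 rose. ASNS (chromosome 7, 97480989 to 97501854, minus strand), asparagine synthetase, which makes asparagine from aspartate and glutamine, had 36.8 and 37.1 RPKM in the Ctrl samples against 22.4 and 22.3 RPKM after MYCN KD. The groups did not overlap and the replicates of each nearly coincided, closer than their counting intervals are wide (35.5 to 38.1 RPKM for Ctrl replicate 1). ASNS fell by 39.5%, with a log2 fold change of -0.70 (SE 0.033, 95% interval -0.80 to -0.60, limma adjusted p = 0.00359). Of all tested genes, 4.86% had a larger fall. GENCODE annotates 5 pseudogenes of ASNS, which could share reads with it, and a long noncoding RNA without a symbol overlaps 20855 bases on the same strand.

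TRIB3 (chromosome 20, 343479 to 378203, plus strand) encodes a pseudokinase that binds AKT and ATF4 and damps the response. Its values were 9.79 and 9.35 RPKM in the Ctrl samples against 11.3 and 11.8 RPKM after MYCN KD. Both MYCN KD samples were higher, by a ratio of the means of 1.20. The log2 fold change was 0.24 (SE 0.049, 95% interval 0.10 to 0.39, limma adjusted p = 0.0284). This call was the least stable of the 5: it was lost after quantile normalization (0.22, limma adjusted p = 0.0583) and without any 1 of the 4 samples, with the direction kept. With 1 sample left out the change ranged from 0.21 to 0.28. The variance of such fits follows mean expression and not the gene's own spread.

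CHAC1 (chromosome 15, 41245160 to 41248710, plus strand), an enzyme that degrades glutathione, had 9.42 and 7.26 RPKM in the Ctrl samples against 5.65 and 7.29 RPKM after MYCN KD. The second MYCN KD replicate was at the level of the second Ctrl replicate, so the groups overlapped. The log2 fold change was -0.32 (SE 0.18, 95% interval -0.85 to 0.21, limma adjusted p = 0.219). CHAC1 had the fewest reads of the 10 genes, 128 to 251 per sample, and the counting intervals of its closest samples, 6.24 to 8.39 RPKM in Ctrl replicate 2 and 6.25 to 8.45 RPKM in MYCN KD replicate 2, almost coincided. Its change was -0.49 without Ctrl replicate 2 and -0.48 without MYCN KD replicate 2, and it ranged up to -0.15 with other samples left out. The variance of such fits follows mean expression and not the gene's own spread, so no call of CHAC1 is taken from them.

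DDIT4 and SESN2 restrain mTORC1, DDIT4 (also called REDD1) through the TSC complex and SESN2, a leucine sensor, through GATOR2. DDIT4 (chromosome 10, 74033678 to 74035794, plus strand) had 25.1 and 23.1 RPKM in the Ctrl samples against 21.5 and 23.4 RPKM after MYCN KD. SESN2 (chromosome 1, 28586029 to 28609002, plus strand) had 11.5 and 10.4 RPKM in the Ctrl samples against 11.2 and 12.4 RPKM after MYCN KD. In both genes the groups overlapped. The log2 fold change was -0.10 for DDIT4 (95% interval -0.30 to 0.11, limma adjusted p = 0.315) and 0.10 for SESN2 (95% interval -0.14 to 0.33, limma adjusted p = 0.386). Overlap of groups was itself uncommon in this comparison, since 76.2% of all tested genes had groups that did not overlap (40.4% with MYCN KD higher and 35.8% with it lower), as did 5 of these 10 (2 higher and 3 lower).

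Because RPKM is given per length, levels can be set side by side. In Ctrl the order of mean RPKM was ATF4, ASNS, DDIT4, ATF5, DDIT3, CEBPB, SESN2, TRIB3, CHAC1 and ATF3, and among neighbours only CEBPB with SESN2 and TRIB3 with CHAC1 had overlapping samples. In MYCN KD the order was ATF4, DDIT4, ASNS, ATF5, DDIT3, ATF3, SESN2, TRIB3, CEBPB and CHAC1, where DDIT4 with ASNS, ATF5 with DDIT3, ATF3 with SESN2, SESN2 with TRIB3, and CEBPB with CHAC1 overlapped. ATF3 thus moved from place 10 to place 6 and CEBPB from place 6 to place 9. ATF4 made up 63.7% and 65.4% of the summed RPKM of the 10 genes in Ctrl and 61.0% and 59.4% in MYCN KD. Without ATF4 the sum was 145 and 135 RPKM in the Ctrl samples against 121 and 130 RPKM after MYCN KD, where the groups lay closer but did not overlap.

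A ratio to ATF4 within a sample is not changed by a single scaling factor for that sample, though normalizations that treat genes separately, among them steps before deposit, can move it. The log2 ratio of ATF3 to ATF4 was -5.42 and -5.40 in Ctrl against -3.94 and -3.96 in MYCN KD, so ATF3 gained 2.75-fold on ATF4. The ratio of TRIB3 to ATF4 was -4.70 and -4.76 in Ctrl against -4.07 and -4.01 in MYCN KD, a 1.62-fold gain. DDIT3, whose own level did not pass the test, was at -4.06 and -4.12 relative to ATF4 in Ctrl against -3.68 and -3.62 in MYCN KD, a 1.36-fold gain. In these 3 ratios both MYCN KD samples lay above both Ctrl samples. ATF4 itself fell to 0.745 of its Ctrl mean, and 86.7% of all tested genes had a higher log2 fold change than ATF4. A gain on ATF4 was thus common among genes, and the share of all genes with such separated ratios was not counted. ASNS fell more than ATF4 did, with log2 ratios of -2.79 and -2.77 in Ctrl against -3.07 and -3.09 in MYCN KD. CEBPB also went from -4.21 and -4.54 to -4.89 and -4.57, where the closest samples of the groups nearly met. Between targets, the log2 ratio of TRIB3 to ASNS rose from -1.91 and -1.99 in Ctrl to -0.996 and -0.92 on knockdown, a 1.99-fold shift. These ratios are given as values without a test.

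**Figure D2:**
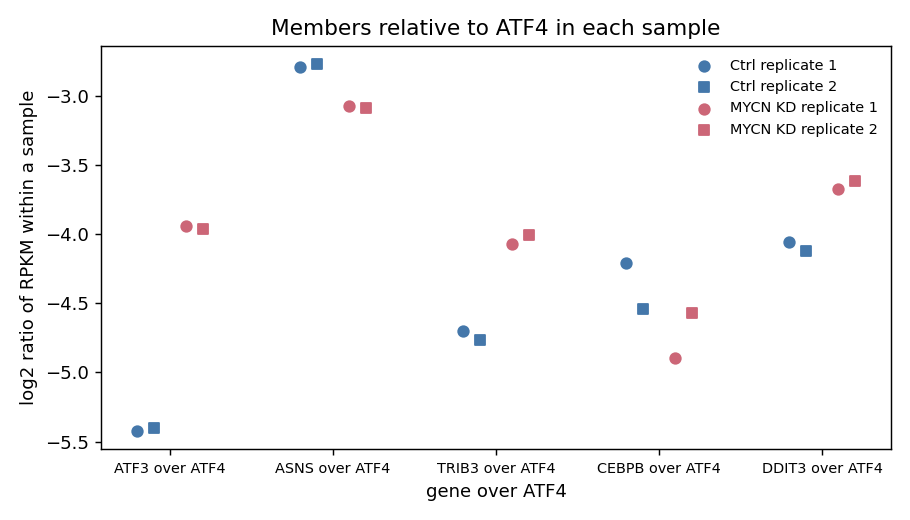
Log2 ratio of the RPKM of 5 genes to that of ATF4 within each of the 4 samples. ATF3, TRIB3 and DDIT3 lie higher relative to ATF4 in MYCN KD, ASNS lies lower, and the second replicates of CEBPB nearly meet.

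Upstream of ATF4, 18 of 18 listed genes were tested. They are genes of eIF2, its kinases, its phosphatase and its exchange factor eIF2B, together with GCN1, IMPACT, KIAA0141 and OMA1. The genes GCN1, IMPACT, KIAA0141 and OMA1 did not pass the test. In MYCN KD 3 rose and 7 fell, and 8 did not pass the test (median log2 fold change -0.23), beside 25.3% higher and 22.8% lower among all tested genes. PPP1R15A, the stress-induced phosphatase subunit GADD34 that reverses eIF2 phosphorylation, had 13.1 and 12.2 RPKM in the Ctrl samples against 19.4 and 20.7 RPKM after MYCN KD, and its log2 fold change was 0.62 (limma adjusted p = 0.00719). EIF2AK3, the endoplasmic reticulum (ER) kinase PERK, had 1.87 and 2.22 RPKM in the Ctrl samples against 3.30 and 2.78 RPKM after MYCN KD (0.41, limma adjusted p = 0.0448). The third rise was of EIF2B2, a subunit of eIF2B, by 0.15 on the log2 scale. The largest falls were of EIF2B3 (-0.77), the eIF2 subunit EIF2S3 (-0.61) and EIF2B5 (-0.56), the catalytic subunit of eIF2B. The EIF2AK3 call was lost without the filter on low values (limma adjusted p = 0.0736). A fit with 1 sample left out takes its variance from mean expression and not from the gene's own spread. In such fits EIF2AK3 ranged from 0.32 to 0.50 and EIF2B2 from 0.15 to 0.16 on the log2 scale. EIF2B2 then had no call without any 1 sample, and EIF2AK3 none without Ctrl replicate 1 or MYCN KD replicate 1. The count of rises was 1 without either of those first replicates.

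Of 17 other bZIP factors tested of 27, 7 rose and 1 fell (median 0.12), and 9 did not pass the test. Together that is close to the 48.1% of all tested genes called, with 25.3% higher and 22.8% lower. FOSL2, an AP-1 subunit, went from 13.4 and 13.2 RPKM to 22.0 and 22.2 RPKM (0.69, limma adjusted p = 0.00365). ATF7 went from 8.19 and 8.33 RPKM to 14.0 and 13.8 RPKM (0.69), and JUND, an AP-1 subunit that pairs with ATF3, from 96.6 and 90.3 RPKM to 142 and 152 RPKM (0.65). The single fall was of ATF6, the ER membrane sensor, from 13.0 and 13.6 RPKM to 8.86 and 8.50 RPKM (-0.56, limma adjusted p = 0.00600). CEBPG, a dimer partner of ATF4 named after its values were seen, had 13.1 and 14.5 RPKM in the Ctrl samples against 13.1 and 11.9 RPKM after MYCN KD and did not pass the test (limma adjusted p = 0.240).

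The paralogs of the targets moved in both directions. Of 5 tested of 6, TRIB2 (0.45) and SESN3 (0.52) were higher and TRIB1 (-0.51), SESN1 (-0.48) and CHAC2 (-0.47) were lower. Among all tested genes 25.3% were higher and 22.8% lower (48.1% in either direction). SESN1 had 2.50 and 2.50 RPKM in the Ctrl samples against 1.51 and 1.51 RPKM after MYCN KD, while SESN3 went from 6.65 and 8.003 RPKM to 11.9 and 9.95 RPKM. The 3 sestrins thus had a fall, a rise and, for SESN2, overlapping groups. The rises of TRIB2 and SESN3 did not pass without the filter on low values (adjusted p = 0.0600 and 0.0737, limma), and that of SESN3 was also lost after rescaling to the same total (adjusted p = 0.0502).

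Most of the amino acid synthesis and transport genes that ATF4 is known to activate fell. This list, like the others, was chosen with earlier results of these data known. Whether ATF4 or MYCN acts on these genes in these cells was not tested. Of 19 tested of 21, 16 fell and 0 rose, with a median log2 fold change of -0.65 beside 0.03 for all tested genes, of which 22.8% fell and 25.3% rose. By limma voom on the recovered reads the counts were also 16 and 0, and 0 rose at an unadjusted p under 0.05. PSAT1, of serine synthesis, fell from 114 and 114 RPKM to 43.4 and 43.3 RPKM (-1.38, limma adjusted p = 0.00359). SLC7A5, the transporter of large neutral amino acids, fell from 173 and 146 RPKM to 61.2 and 72.0 RPKM (-1.25, limma adjusted p = 0.00785). MTHFD2, of mitochondrial folate metabolism, fell from 59.6 and 65.3 RPKM to 27.8 and 25.5 RPKM (-1.20, limma adjusted p = 0.00422). These 3 were named for the largest falls among genes past the threshold whose groups did not overlap. Their separated groups and their larger fitted falls than that of ASNS therefore follow from that choice. The 3 genes that did not pass were PCK2 (0.12), SLC1A4 (-0.03) and the glutamine transporter SLC38A2, which had 20.7 and 25.6 RPKM in the Ctrl samples against 34.2 and 27.8 RPKM after MYCN KD (0.41, limma adjusted p = 0.118). The fall counts were 14 to 15 when any 1 sample was left out, and 1 gene then passed as higher without either second replicate.

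The tRNA synthetase genes and the tRNA exporter gene XPOT had 10 of 13 lower and 0 higher (median -0.41), 0 higher also by limma voom and at an unadjusted p under 0.05, beside 22.8% lower and 25.3% higher among all tested genes. The count of falls was 7 after rescaling to the same total and 8 without the filter on low values. IARS fell from 80.7 and 92.3 RPKM to 55.5 and 48.8 RPKM (-0.72), YARS from 93.1 and 90.8 RPKM to 55.7 and 57.1 RPKM (-0.70) and AARS from 187 and 174 RPKM to 123 and 132 RPKM (-0.49). EPRS (-0.23), SARS (-0.03) and WARS (-0.01) did not pass the test. MARS, whose gene overlaps DDIT3, fell from 116 and 111 RPKM to 83.0 and 87.1 RPKM (-0.41, limma adjusted p = 0.00956).

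Of other targets of ATF4 and CHOP, 5 of 15 tested were higher, 5 were lower and 5 did not pass the test (median 0.03), where 25.3% of all tested genes were higher and 22.8% lower. KLHL24 went from 1.44 and 1.80 RPKM to 3.70 and 2.98 RPKM (0.72), GDF15, a stress cytokine, from 0.903 and 0.704 RPKM to 1.61 and 2.05 RPKM (0.65), and BBC3, which encodes the cell death protein PUMA, from 1.38 and 0.970 RPKM to 2.04 and 2.88 RPKM (0.66). PPP1R15A, described above, and MAP1LC3B (0.47) were the other rises. STC2, a secreted glycoprotein, fell from 5.49 and 4.49 RPKM to 1.35 and 1.65 RPKM (-1.26), EIF4EBP1, a repressor of cap-dependent translation, from 263 and 230 RPKM to 114 and 130 RPKM (-1.01), and PMAIP1, which encodes the cell death protein NOXA, from 8.55 and 10.1 RPKM to 5.48 and 4.66 RPKM (-0.77). BCL2L11 (-0.44) and LONP1 (-0.54) were the other falls. The call of BBC3 was at the threshold (limma adjusted p = 0.04997) and was lost without the filter on low values, after quantile normalization and without a trend in eBayes (adjusted p up to 0.0840, limma).

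**Figure D3:**
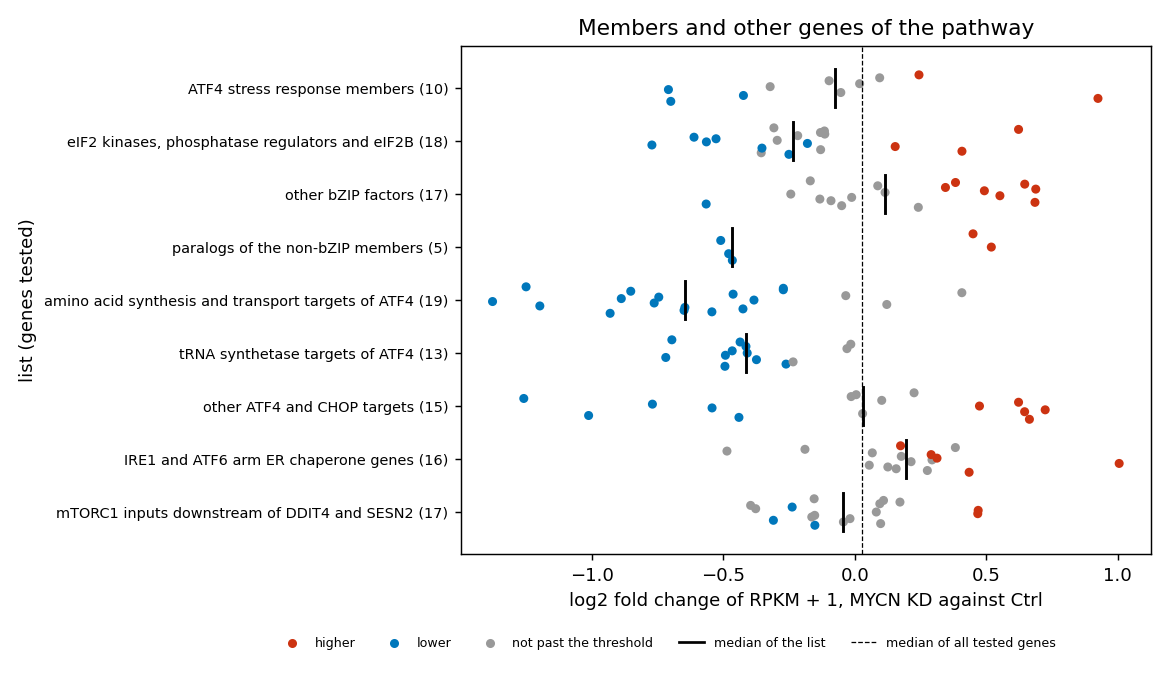
Log2 fold change of RPKM + 1 in MYCN KD against Ctrl for each tested gene (points) of the 10 genes and of 8 further lists, with the median of each list as a bar and the median of all tested genes, 0.03, as a dashed line. The amino acid and tRNA synthetase genes lie mostly below 0, and the ATF4 stress response genes lie on both sides.

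For the other branches of the unfolded protein response, governed by IRE1 and ATF6, ER chaperone genes were listed with XBP1, ERN1, EDEM1, SEL1L and HERPUD1. Of 16 tested genes 5 were higher and 0 lower (median 0.20), also by limma voom, with 0 lower and 7 higher at an unadjusted p under 0.05. The share higher is near the 25.3% of all tested genes, of which 22.8% were lower. EDEM1, which directs misfolded glycoproteins to degradation, went from 3.93 and 4.67 RPKM to 10.4 and 8.83 RPKM (1.01, limma adjusted p = 0.00992). CALR, a lectin chaperone, went from 878 and 808 RPKM to 1094 and 1186 RPKM (0.44), and HSPA5, the main ER chaperone BiP, from 201 and 214 RPKM to 266 and 250 RPKM (0.31). MANF (0.29) and XBP1 (0.17) were the other rises. This count depends on the settings, with 9 higher after rescaling to the same total and 8 after quantile normalization, and 1 gene passed as lower when any 1 sample was left out.

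Around mTORC1, downstream of DDIT4 and SESN2, 2 of 17 genes rose, 3 fell and 12 did not pass the test (median -0.04), which is below the share of all tested genes called. The Rag GTPase genes RRAGA, from 41.4 and 41.7 RPKM to 58.1 and 57.7 RPKM, and RRAGC, from 5.80 and 6.65 RPKM to 9.60 and 8.41 RPKM, both rose by 0.47 on the log2 scale. The falls were of NPRL2 (-0.31), SEC13 (-0.24) and DEPDC5 (-0.15), of the GATOR complexes. All 3 falls lost their call when 1 sample was left out: SEC13 and DEPDC5 in every such fit, and NPRL2 in 3 of the 4. Their sizes then ranged from -0.27 to -0.21 for SEC13, -0.16 to -0.14 for DEPDC5 and -0.32 to -0.30 for NPRL2. The variance of such fits follows mean expression and not the gene's own spread.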

How the data were processed

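RNA-seq of 2 Ctrl and 2 MYCN KD samples was used, grouped by the sample labels. Per the labels and the study's methods, the authors aligned the reads (HISAT2 2.1.0, build hg19), counted them on RefSeq genes with featureCounts, normalized the counts with DESeq2 and RUVSeq and deposited RPKM values, with 1 file per sample and replicates not pooled. The number of factors that RUVSeq removed and the use of strand are not given in the sources used here. Removal of unwanted variation before deposit changes the spread between replicates, and nothing upstream of the deposited RPKM was redone.

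From the RPKM steps, whole reads were recovered for all 19908 genes above 0 (100.0%, tolerance 0.002 reads). These totals are of adjusted reads, so counting intervals (exact Poisson, 95%) are approximate. The test was limma 3.58.1 (R 4.3.3; lmFit, eBayes with a trend) on log2(RPKM + 1), over the 11411 genes whose mean RPKM reached 1, with no block, Benjamini-Hochberg adjustment over all of them and a threshold of 0.05. The code was tested on simulated data with independent replicates, unlike the mirror-image deviations seen here, so error rates in these data were not tested. Gene symbols follow the deposited files.

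Same-numbered samples moved apart rather than together (correlation -0.9845), so the numbers were not used as pairs. Alternatives were a pseudocount of 0.1, no filter or a mean RPKM of at least 5, rescaling to the same total, quantile normalization, eBayes without a trend, the replicate block, limma voom on the recovered reads, and each sample left out. A crossed replicate block was added after seeing the data. The 10 genes and all other lists were chosen with earlier results of these data known. Besides the 10 genes and MYCN, the text names from each list up to 3 rises and 3 falls with the largest change among genes past the threshold whose groups do not overlap, genes needed to identify a count of 5 or fewer, and CEBPG and MARS, which were chosen after their values were seen. Positions are from GENCODE release 44 lifted to GRCh37 and promoters from the RefSeq table of build GRCh38.p14, where all 10 genes matched, placed on GRCh37 by exact match of their sequence. Other software was Python 3.11.15 with scipy 1.17.1, pandas 2.3.3, numpy 2.4.6 and matplotlib 3.10.9.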

Additional observations from a re-analysis of the deposited data

How the results depend on the processing

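ATF4, ASNS and ATF3 kept their direction and their call under the 12 alternatives run on each, with log2 fold changes of -0.43 to -0.29 for ATF4, -0.72 to -0.64 for ASNS and 0.88 to 1.04 for ATF3. CEBPB kept its direction and lost its call only without the filter on low values (-0.71, limma adjusted p = 0.0633), where 19908 genes were tested. The sign of changes near 0 turned: ATF5 was at 0.0048 after rescaling to the same total and from -0.12 to 0.015 with 1 sample left out, and DDIT3 from -0.013 to 0.050. With 1 sample left out, TRIB3 ranged from 0.21 to 0.28 with no call, CHAC1 from -0.49 to -0.15, and the 10 genes gave 1 to 1 higher and 3 to 4 lower. Such a fit assumes that the lone sample of a group varies like the others, and its variance follows the mean expression and not the gene's own spread. Quantile normalization gave TRIB3 at 0.22 and thus 1 of the 10 genes higher. With a mean RPKM of at least 5, 1868 genes were higher among 7859 tested. The split of all calls was 2890 higher to 2599 lower, 3279 to 2122 after rescaling and 2901 to 2993 after quantile normalization, and the median of all genes moved to 0.08 and to 0.00.

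With the replicate block, TRIB3 stayed at 0.24 without a call (limma adjusted p = 0.266), and the 10 genes gave 1 higher and 3 lower. All genes gave 2077 higher and 1851 lower, and no other call among the 10 genes changed. The listed genes of the IRE1 and ATF6 branches then had 2 higher and 1 lower instead of 5 and 0, and HSPA5 lost its call (limma adjusted p = 0.0502). The block fit had 11410 total degrees of freedom, beside 3.489 in the main fit. Its variance was pooled over genes and did not follow each gene's own spread. The correlation of same-numbered samples was -0.9845, so the numbers do not pair them. Crossing the pairing, an alternative chosen after seeing the data, called 4 of the 10 genes higher and 6 lower, and 5910 of all genes higher and 5262 lower, which is nearly every gene tested. Of 35 genes named from the other lists for the largest changes, 25 kept direction and call in every alternative. In the remaining ones 33 of 411 values in all lost the call and 0 turned. Genes named for other reasons, such as MANF, XBP1, LONP1 and MARS, were not followed gene by gene through the alternatives. Among the 10 genes CHAC1 had the fewest reads per sample, 128 to 251.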
